A study of Homo sapiens with 9 samples.

Results

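The 10 genes described here encode acyl-CoA synthetases, the enzymes that join a fatty acid to coenzyme A. They were taken by symbol, as ACSL1, ACSL3, ACSL4, ACSL5, ACSL6, ACSM3, ACSM4, ACSF2, ACSF3 and ACSS1, from a table of 19907 genes, and all 10 had a row in it. The table holds RNA-seq counts from HUES8 cells, an established line of human embryonic stem cells that is wild type in all 9 libraries, during differentiation to definitive endoderm, the germ layer of gut, liver and pancreas. After 2 days of maintenance in mTeSR1 on Matrigel, every culture received DMEM/F12 medium with activin A at 100 ng/mL, Wnt-3a at 50 ng/mL and 0.2% fatty acid free albumin for 2 days, and Wnt-3a was then left out for a further 1 to 2 days. The DE group had no inhibitor, the C75 group received C75, an inhibitor of fatty acid synthase, and the ETO group received an inhibitor of fatty acid oxidation that the labels name only by that abbreviation, with 3 libraries in each group. Inhibitor doses, treatment times and the day of harvest are not stated in the labels, nor do they say if each library had its own culture. The spread behind every p-value is therefore a spread between libraries that may be technical, and all cells are of 1 line.

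A fatty acid is chemically inert in most pathways until it has been activated to its acyl-CoA. The ACSL enzymes activate long-chain fatty acids, the ACSM enzymes are mitochondrial and act on medium-chain acids, ACSF2 and ACSF3 belong to smaller branches of the family, and ACSS1 makes acetyl-CoA from acetate in mitochondria. The same acyl-CoA can enter mitochondrial oxidation through carnitine palmitoyltransferase 1, or be built into phospholipids, triglycerides and cholesterol esters, and the isoforms differ in cell location and in the acids they prefer.

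Promoter sequence is shown first for the 3 abundant long-chain genes and for the medium-chain gene ACSM4. With each inhibitor ACSL1 and ACSM4 moved in the same direction and ACSL4 in the opposite one. RefSeq start sites on GRCh38.p14 were found for 9 of the 10 members, all but ACSM3. Of the 250 bases before each start site, the stretch holding no annotated exon is printed, 5′ to 3′ on the gene's own strand. ACSL1 has 5 RefSeq start windows, of which only the first, farthest upstream, is shown, and the other 3 genes have 1 each. Capitals mark matches to the motifs searched, on either strand.
ACSL1, minus strand, chr4:184826120-184826218: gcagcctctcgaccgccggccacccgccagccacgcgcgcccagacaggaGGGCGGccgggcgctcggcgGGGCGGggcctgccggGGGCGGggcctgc
ACSL3, plus strand, chr2:222860786-222860933: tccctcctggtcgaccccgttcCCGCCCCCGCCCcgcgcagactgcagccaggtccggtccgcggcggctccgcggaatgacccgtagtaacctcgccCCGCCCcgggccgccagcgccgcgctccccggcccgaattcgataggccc
ACSL4, minus strand, chrX:109733404-109733507: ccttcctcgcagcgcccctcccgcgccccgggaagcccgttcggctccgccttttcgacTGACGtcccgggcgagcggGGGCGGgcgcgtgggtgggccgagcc
ACSM4, plus strand, chr12:7303822-7304071: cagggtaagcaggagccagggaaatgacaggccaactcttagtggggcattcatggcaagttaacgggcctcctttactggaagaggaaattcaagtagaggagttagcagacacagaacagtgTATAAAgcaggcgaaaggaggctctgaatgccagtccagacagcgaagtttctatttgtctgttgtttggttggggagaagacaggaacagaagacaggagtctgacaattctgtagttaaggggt

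The printed windows of the 3 long-chain genes were rich in G and C, and that of ACSM4 was not. G and C made up 83.6% of the 250 bases at ACSL1, 75.2% at ACSL3, 77.2% at ACSL4 and 48.0% at ACSM4, against a median of 58.0% over 35116 RefSeq promoters. The other 4 ACSL1 windows held 51.2%, 60.0%, 61.2% and 46.8%, so the richness at ACSL1 is that of its first start only. Among long-chain genes not shown, the windows of ACSL5 held 50.0% and 48.8%, and the 7 of ACSL6 from 51.6% to 76.4%. The GC box GGGCGG, found in 42.6% of all promoters, occurred 6 times at ACSL1, 3 times at ACSL3 and 3 times at ACSL4, some of these within exons and not printed. The ACSM4 window held the TATA box letters TATAAA, found in 10.7% of promoters, 126 bases before a RefSeq start that lies 212 bases from the nearest GENCODE start. ACSL4 also held TGACG, the core of the cyclic AMP response element (21.2% of promoters), and ACSL3 held CCAAT (32.0%), the latter outside the printed stretch. The other motifs searched were the PPAR and RXR repeat, which is AGGTCA, any 1 base and AGGTCA again (0.0171% of promoters), the sterol response element TCACNCCAC (0.883%), the E-box CACGTG (6.34%), the FOXA site TGTTTAC (2.98%), the GATA site AGATAA (9.17%) and the SMAD pair GTCTAGAC (0.182%). None of these 6 occurred in the 4 windows shown, which says only that the letters are not there. Among the other ACSL1 windows, that with 60.0% G and C held the sterol response element letters 242 bases before its start, on the opposite strand.

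The synthetases did not move as a block. With C75, ACSL1 and the medium-chain gene ACSM4 rose 2.76-fold and 2.36-fold over DE, while ACSL4 fell 1.58-fold. With ETO, the long-chain genes ACSL3 and ACSL4 rose 1.66-fold and 1.79-fold, ACSM4 fell 10-fold and ACSF2 fell 1.85-fold. Levels are CPM, counts scaled by TMM factors to a common library size, and a gene was called when its edgeR quasi-likelihood p, adjusted over 14177 genes, was below 0.05.

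Of the members, 6 (ACSL1, ACSL3, ACSL4, ACSM4, ACSF2 and ACSF3) passed the filter on low counts in every group, and the family is summarised over these. ACSL5, ACSM3 and ACSS1 passed only through their ETO libraries, where they are high, so their direction against ETO was fixed by the filter. ACSL6 did not pass and was not tested. In C75 against DE, 3 of the 6 were called higher and 2 lower, where 31.2% of all genes tested were called higher and 31.9% lower. In ETO against DE, 2 were higher and 3 lower, where 34.7% and 35.3% of all genes were called. In C75 against ETO, 4 were higher and 2 lower, where 39.9% and 39.2% of all genes were called. CPM values of the groups did not overlap for 4 of the 6 in C75 against DE, where this held for 65.8% of all genes, for 5 of 6 in ETO against DE (71.7%) and for 5 of 6 in C75 against ETO (80%). The median log2 fold change of the 6 was 0.12 in C75 and -0.17 in ETO against DE, with -0.00464 and -0.00339 over all genes. With the 3 scarce members added, the medians took the opposite sign, -0.09 in C75 and 0.74 in ETO, and the calls became 3 higher and 4 lower in C75 and 5 higher and 3 lower in ETO, so neither median gives the family a direction. With so many genes called in every comparison, a call by itself sets no member apart, and the sizes below carry the description. Both inhibitor groups were set against the same DE libraries, so the 2 sets of values are given side by side.

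**Figure D1:**
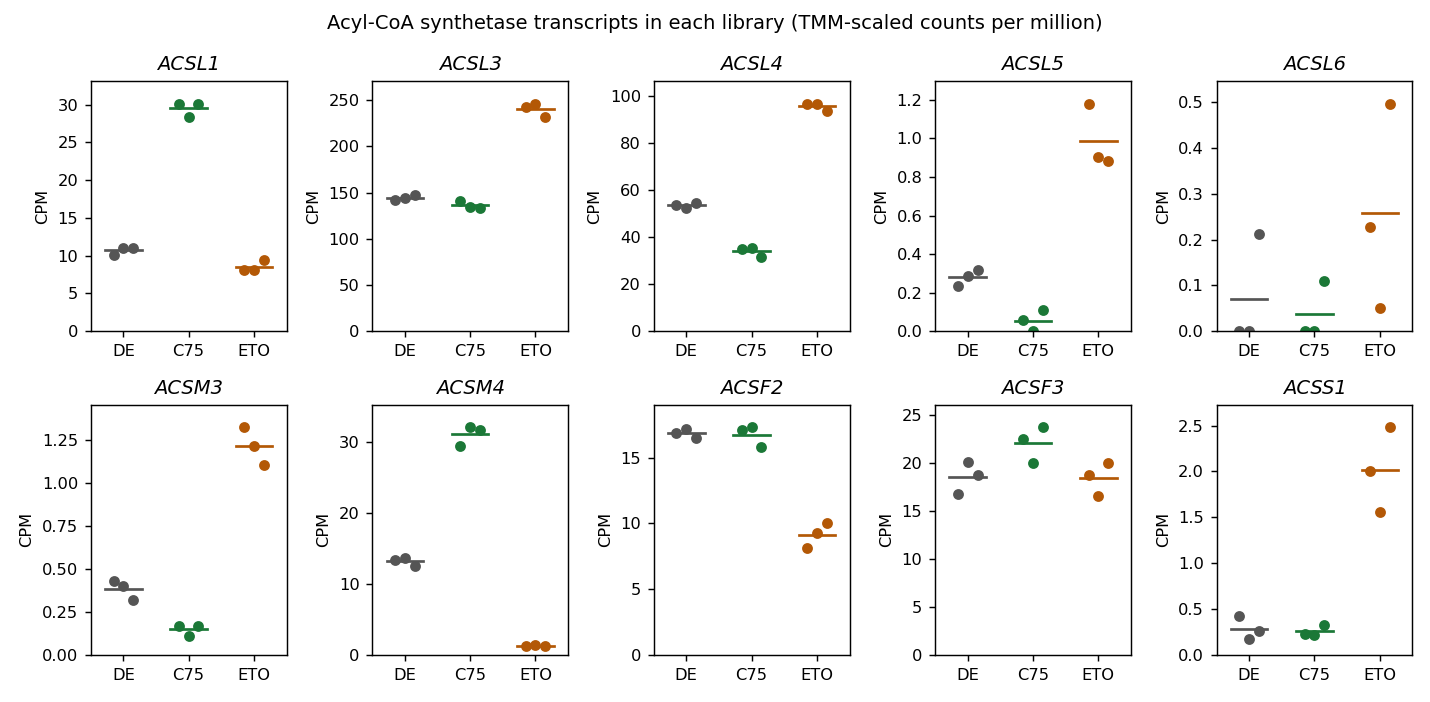
Each point is 1 library and each line a group mean, in TMM-scaled CPM on a linear axis from 0 that differs between genes, for the 10 members in DE, C75 and ETO. ACSL1 stands at 28.4 to 30.1 CPM in C75 against 8.09 to 11 CPM in the other libraries, and ACSM4 at 1.27 to 1.36 CPM in ETO against 12.6 CPM or more elsewhere.

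ACSL1 encodes a long-chain synthetase prominent in liver, fat and muscle (GRCh38, chr4:184755595-184826818, minus strand, ENSG00000151726.13). The DE libraries had 10.1, 11 and 11 CPM, the C75 libraries 30.1, 28.4 and 30.1 CPM and the ETO libraries 8.13, 8.09 and 9.36 CPM. The C75 libraries lay far above all others, and the ETO libraries lay just below DE without overlap. The rise with C75 had a log2 fold change of 1.47 (SE 0.081, edgeR adjusted p = 3.54e-17). The fall with ETO was smaller, at -0.33 (1.26-fold, SE 0.0958, edgeR adjusted p = 0.00268). Because the RNA came from whole cultures, fewer cells of a type and less RNA per cell cannot be told apart, here and in every result that follows.

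ACSL3 encodes a long-chain synthetase of the endoplasmic reticulum and of lipid droplets (chr2:222860934-222944639, plus strand, ENSG00000123983.13). Its level was 142, 144 and 147 CPM without inhibitor, 141, 134 and 133 CPM under C75 and 242, 246 and 232 CPM under ETO. Only the ETO libraries stood clearly apart. The rise with ETO was 0.74 on the log2 scale (SE 0.0359, edgeR adjusted p = 4.12e-19). The C75 libraries lay just under the DE libraries, at -0.09 (1.06-fold, 95% interval -0.16 to -0.01, edgeR adjusted p = 0.0413). That small call was lost by the same edgeR test when a single library was left out: DE replicate 2 (adjusted p = 0.0574) or 3 (0.069), C75 replicate 2 (0.0663) or 3 (0.0784), or ETO replicate 1 (0.0507).

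ACSL4 encodes the long-chain synthetase that favours arachidonic and other polyunsaturated acids and that is known for its part in lipid peroxidation and ferroptosis (chrX:109624244-109733403, minus strand, ENSG00000068366.19). CPM values were 53.7, 52.4 and 54.3 in DE, 34.8, 35.4 and 31.5 in C75 and 96.4, 96.7 and 93.7 in ETO. The 3 groups did not overlap, with C75 lowest and ETO highest. The fall with C75 was -0.66 (SE 0.0524, edgeR adjusted p = 5.69e-13) and the rise with ETO 0.84 (SE 0.0458, adjusted p = 9.3e-18). Between the inhibitor groups ACSL4 differed 2.82-fold (edgeR adjusted p = 1.57e-24). Its exons share 78 bases, 1.22% of their length, with KCNE5 on the same strand, a gene with 252 counts in all.

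ACSL5 encodes a long-chain synthetase found at the outer mitochondrial membrane and known from intestine (chr10:112374018-112428380, plus strand, ENSG00000197142.10). Its raw counts were 5, 5 and 6 in DE, 1, 0 and 2 in C75 and 26, 18 and 16 in ETO. At most 1.18 CPM was reached, so the gene was near the limit of detection outside ETO. Pooled over libraries and scaled for depth, ETO stood 3.59 times above DE (95% counting interval 2.04 to 6.67) and DE stood 5.02 times above C75 (1.44 to 26.9). The fitted ETO difference was 1.81 on the log2 scale (SE 0.43, edgeR adjusted p = 0.000362). ACSL5 passed the low-count filter only through ETO, which fixed this direction, so the p-value is no support for it. The fitted C75 difference was -2.20 (SE 0.809, edgeR adjusted p = 0.0182). Without C75 replicate 2, which had no count, it was -1.68 and no longer called (adjusted p = 0.0842), and without C75 replicate 3 it was -3.07, by the same edgeR test. ACSL5 shares 144 exon bases (3.4%) with ZDHHC6 on the opposite strand, and the strand setting of the counting is not given in the sources used here. ZDHHC6 was higher in C75 than in DE (log2 fold change 0.68, edgeR adjusted p = 2.33e-11), the direction opposite to ACSL5.

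ACSL6, a long-chain synthetase known from brain, had 0, 0 and 4 counts in DE, 0, 0 and 2 in C75 and 5, 1 and 9 in ETO (chr5:131949973-132012243, minus strand, ENSG00000164398.12). Those 21 counts come from 9 libraries of about equal size, and single libraries of all groups overlapped. The pooled ratio of ETO to DE was 3.59 with a counting interval of 1.14 to 14.8, and that of ETO to C75 was 6.76 (1.57 to 60.9). Tested without a filter on low counts, ACSL6 differed between C75 and ETO (log2 fold change -2.56, edgeR adjusted p = 0.0291) but was not called in ETO or C75 against DE (adjusted p = 0.106 and 0.666). Counting intervals here cover counting error only. ACSL6 shares 2009 exon bases (15.4%) with AC026398.1 on the same strand, a gene with 0 counts in every library.

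The make-up of the long-chain set was compared per unit of gene length, as TPM, counts divided by gene length and scaled to the same total in every library, since CPM cannot rank genes of different length. Summed over the 5 ACSL genes, DE had 118 ± 1.58 TPM, C75 106 ± 3.90 and ETO 197 ± 3.98 (SD, n = 3 each), and the libraries of the 3 groups did not overlap. ACSL3 supplied nearly the same share in all groups, 66.4% ± 0.163 in DE, 65.2% ± 0.431 in C75 and 66.8% ± 0.471 in ETO. The balance between ACSL1 and ACSL4 was what differed. ACSL1 made up 5.67% ± 0.232 of the sum in DE, 16.4% ± 0.628 in C75 and 2.74% ± 0.297 in ETO. ACSL4 made up 27.7% ± 0.413, 18.4% ± 0.928 and 30.0% ± 0.163 in the same order. ACSL4 exceeded ACSL1 4.65 to 5.2 times in the DE libraries and 9.8 to 11.7 times in ETO, but only 1.03 to 1.22 times in C75. ACSL5 and ACSL6 together stayed under 1% of the sum in each library.

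**Figure D2:**
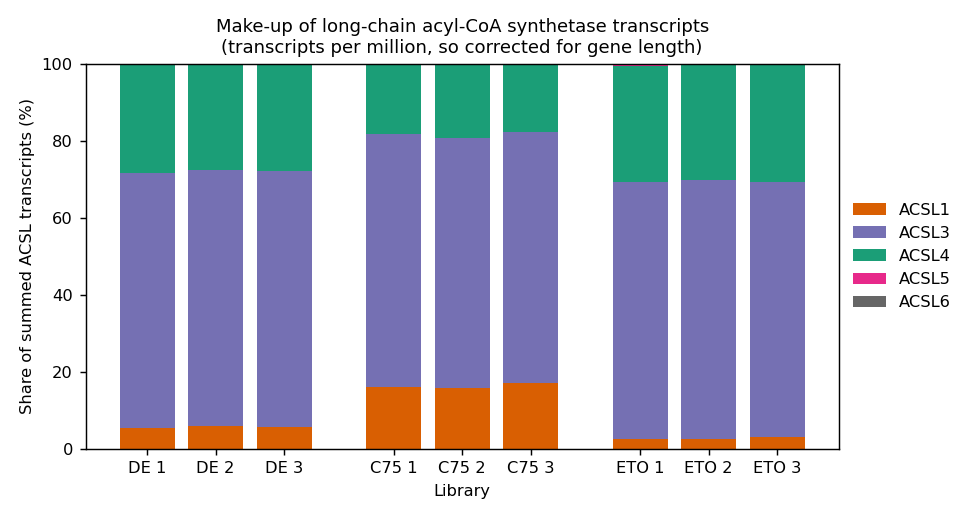
Stacked bars give the percentage of the summed ACSL TPM that each ACSL gene supplied in each of the 9 libraries. ACSL3 fills about the same part of every bar, while ACSL1 widens to between 15.9% and 17.1% in the C75 libraries and narrows to between 2.55% and 3.08% in the ETO libraries.

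ACSM4 had the widest swing of the 6 members that passed the filter in every group. It encodes a mitochondrial enzyme of the medium-chain branch (chr12:7304284-7328724, plus strand, ENSG00000215009.5). The 3 DE libraries had 13.4, 13.7 and 12.6 CPM, those with C75 29.5, 32.1 and 31.8 CPM and those with ETO 1.27, 1.36 and 1.32 CPM. No library of one group came near those of another. The rise with C75 was 1.24 on the log2 scale (SE 0.0769, edgeR adjusted p = 8.7e-16), and the fall with ETO was -3.32 (SE 0.132, adjusted p = 1.04e-21). In size, the fall with ETO exceeded that of 99.9% of the genes tested in that comparison. C75 and ETO differed 23.6-fold (edgeR adjusted p = 7.31e-28).

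ACSM3 belongs to the same branch but was scarce and ran the other way (chr16:20610243-20797581, plus strand, ENSG00000005187.11). Its raw counts were 9, 7 and 6 in DE, 3, 2 and 3 in C75 and 29, 24 and 20 in ETO. ETO libraries were highest and C75 libraries lowest, with no overlap. Pooled, ETO stood 3.17 times above DE (counting interval 1.95 to 5.37) and DE 2.59 times above C75 (1.11 to 6.73). The fitted rise with ETO was 1.65 (SE 0.366, edgeR adjusted p = 0.00017). Its direction was fixed by the low-count filter, passed only through ETO, so the p-value is no support for it. The fitted fall with C75 was -1.33 (SE 0.579, edgeR adjusted p = 0.0445). It was not called by DESeq2 (adjusted p = 0.0776), by edgeR without a low-count filter (0.0776), with the replicate number as a block (0.0539), nor without any 1 of the 6 DE and C75 libraries (0.0502 to 0.119) or ETO replicate 3 (0.051). ACSM3 shares 867 exon bases, 11.1% of its length, with ERI2 on the opposite strand, a gene with 2749 counts. ERI2 was at 16.7 ± 1.12 CPM in DE, 12.6 ± 1.33 in C75 and 18.6 ± 1.26 in ETO (SD, n = 3), called lower in C75 (log2 fold change -0.40, edgeR adjusted p = 0.000279) and not called in ETO (0.16, adjusted p = 0.0944). The reads of the shared exons cannot be told apart without the strand setting.

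ACSF2, a mitochondrial member of the family found in genetic screens for ferroptosis genes, had CPM values of 16.9, 17.2 and 16.5 in DE, 17.1, 17.3 and 15.8 in C75 and 8.13, 9.24 and 10 in ETO (chr17:50426158-50474845, plus strand, ENSG00000167107.12). The DE and C75 libraries were mixed, and the ETO libraries all lay below them. The fall with ETO was -0.89 (SE 0.0907, edgeR adjusted p = 1.25e-10). The C75 difference was -0.01 with a 95% interval of -0.18 to 0.16 (edgeR adjusted p = 0.928). ACSF2 shares 270 exon bases with CHAD on the opposite strand, which had 46 counts in all.

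ACSF3 encodes the mitochondrial malonyl-CoA synthetase, which feeds fatty acid synthesis inside mitochondria (chr16:89088375-89164121, plus strand, ENSG00000176715.16). CPM values were 16.8, 20.1 and 18.7 in DE, 22.5, 20.0 and 23.7 in C75 and 18.7, 16.6 and 20.0 in ETO. The libraries of all 3 groups overlapped or touched. ACSF3 was called higher in C75 than in DE by 0.26 (1.19-fold, SE 0.0842, edgeR adjusted p = 0.00888), but not without DE replicate 1 (0.18, adjusted p = 0.0794) or C75 replicate 3 (0.19, adjusted p = 0.0855). Its difference from ETO, also 0.26 (edgeR adjusted p = 0.00548), was lost without C75 replicate 3 (adjusted p = 0.0565) or ETO replicate 2 (0.0532). Between ETO and DE the 95% interval ran from -0.18 to 0.17 (edgeR adjusted p = 0.969). In GENCODE, ACSF3 shares 1175 exon bases (8.04%) with LINC00304 on the same strand, a gene not analysed here.

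ACSS1, the mitochondrial acetyl-CoA synthetase, had 9, 3 and 5 raw counts in DE, 4, 4 and 6 in C75 and 44, 31 and 45 in ETO (chr20:25006230-25058980, minus strand, ENSG00000154930.14). Every ETO library exceeded every other library, and DE and C75 were mixed. The pooled ETO to DE ratio was 6.75 (counting interval 4.04 to 12), and the fitted rise was 2.74 on the log2 scale (SE 0.366, edgeR adjusted p = 4.71e-08). Because ACSS1 passed the low-count filter only through ETO, this direction was fixed in advance and the p-value is no support for it. The C75 difference had a 95% interval of -1.32 to 0.95 (edgeR adjusted p = 0.788), too wide to show that C75 left the transcript as it was. Even in ETO the gene reached 0.919 ± 0.213 TPM (SD, n = 3).

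**Figure D3:**
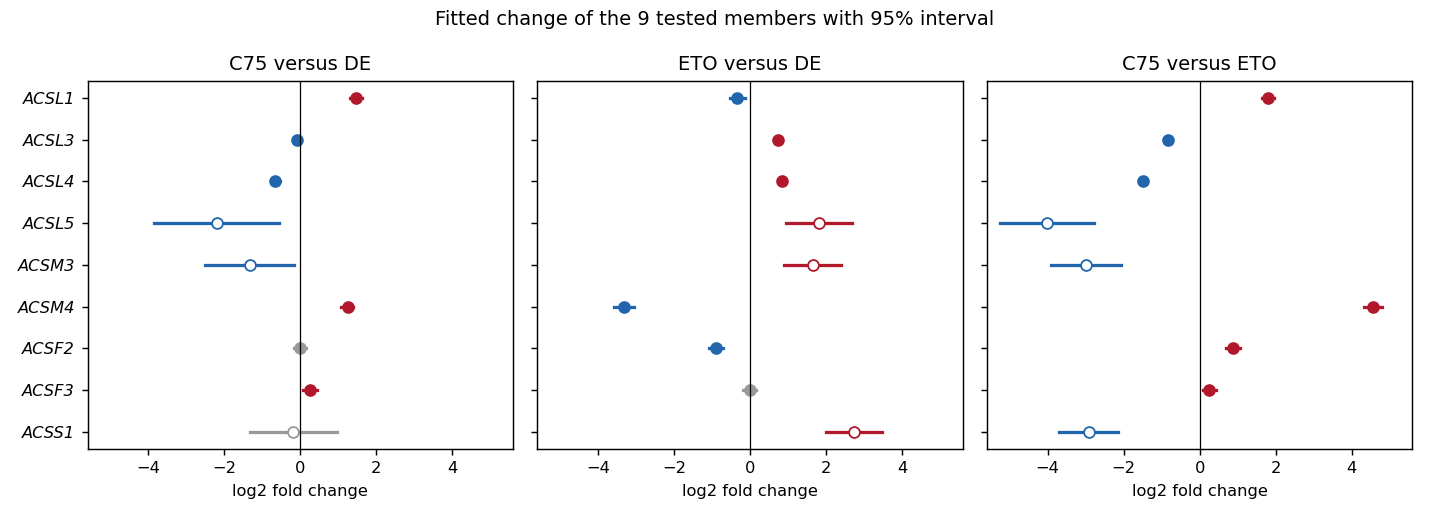
Points are fitted log2 fold changes and bars their 95% intervals for the 9 members tested, with red for called higher, blue for called lower and grey for not called; open points mark the 3 members that passed the low-count filter only through ETO. ACSM4 runs from 1.24 in C75 to -3.32 in ETO, and the intervals of the scarce members ACSL5, ACSM3 and ACSS1 are the widest.

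The inhibitor groups were also tested against each other rather than against the shared DE libraries. ACSL1, ACSM4, ACSF2 and ACSF3 were higher in C75 than in ETO, by 3.48-fold, 23.6-fold, 1.84-fold and 1.2-fold. ACSL3 and ACSL4 were lower in C75, by 1.77-fold and 2.82-fold. The scarce members ACSL5, ACSM3 and ACSS1 were lower in C75 by pooled ratios of 18 (counting interval 5.88 to 89.8), 8.22 (3.96 to 19.8) and 7.72 (4.43 to 14.6). For these scarce members the filter fixed the direction here too. The fitted ACSL5 difference of -4.02 became -4.88 without C75 replicate 3, which held 2 of the 3 C75 counts, so whether ACSL5 or ACSM4 (4.56) differed more was not settled. The 10 members summed to 155 ± 0.334 TPM in DE, 168 ± 3.16 in C75 and 212 ± 2.92 in ETO (SD, n = 3).

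By level per length, ACSL3 led in every group, at 78.2 ± 0.964 TPM in DE, 69.0 ± 2.77 in C75 and 132 ± 3.56 in ETO (SD, n = 3), the 88.8th, 87.3rd and 94.2nd percentile of all genes in the table. In DE it was followed by ACSL4 (32.7 TPM), ACSM4 (20.9), ACSF2 (11.4), ACSL1 (6.69) and ACSF3 (4.97), with no overlap of libraries between neighbours. In C75, ACSM4 took the second place at 46.2 ± 2.06 TPM. ACSL4 (19.5 ± 1.38) and ACSL1 (17.3 ± 0.471) followed close together, and ACSF2 (10.6) and ACSF3 (5.55) came after them. In ETO, ACSL4 (59.2 ± 0.903 TPM) stood far above ACSF2 (6.25), ACSL1 (5.39) and ACSF3 (5.01), each overlapping with the next, and ACSM4 dropped to 2.11. The group means of ACSL5, ACSM3, ACSS1 and ACSL6 stayed between 0.0102 and 0.927 TPM, and their single libraries between 0 and 1.14 TPM.

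Stage markers also differed between the groups. The summed level of 10 definitive endoderm markers ran from 10100 to 10500 CPM in DE, 15900 to 16200 in C75 and 5440 to 5550 in ETO. Most of each sum was CER1, at means of 7030, 11400 and 3850 CPM in the same order. Of the 10 markers, 10 were called higher in C75 (SOX17 by only 0.10 on the log2 scale) and 9 lower in ETO, all but LHX1. Over all genes tested, 31.2% were called higher and 31.9% lower in C75, and 34.7% and 35.3% in ETO. For 6 pluripotency markers the sums ran from 680 to 736, 317 to 328 and 1930 to 1990 CPM, with 5 of 6, all but ZFP42, lower in C75 and 6 of 6 higher in ETO. Primitive streak and mesoderm markers (8 genes) summed to 694 to 708, 775 to 831 and 1110 to 1130 CPM. Most of that sum was MIXL1, and of the 7 tested 1 was higher and 4 lower in C75 (median log2 fold change -1.07), and 6 higher and none lower in ETO (0.89). Ectoderm markers (4 genes) summed to 429 to 444, 344 to 356 and 833 to 859 CPM, mostly NES, while of the 3 tested 2 were higher and 1 lower in C75 (median 0.17), and 1 higher and 2 lower in ETO (-2.01). Visceral endoderm, liver and gut markers (7 genes) summed to 24.9 to 28.4, 28.9 to 32.1 and 7.21 to 8.49 CPM, and of the 4 tested 1 was higher and 1 lower in C75 and 2 higher and 2 lower in ETO. The 2 higher in ETO, AFP and APOB, were scarce and needed their ETO libraries to pass the low-count filter. HNF4A and APOA2 were the 2 lower. Trophoblast and amnion markers (5 genes) summed to 30.8 to 33.9, 16 to 17.5 and 23.7 to 26.2 CPM, and of the 3 tested all 3 were lower in C75, and 1 was higher and 1 lower in ETO. Fibroblast markers (3 genes) summed to 56.5 to 59.5, 81.8 to 89 and 58.8 to 62.1 CPM, and of the 2 tested 1 was higher and 1 lower with each inhibitor. In C75, FOXF1, SOX1, AFP, TTR and COL3A1 had no count in any library. Blood markers reached at most 0.659 CPM and endothelial markers at most 0.502 CPM in any library, and HBG1 had no count anywhere. The part of these stage differences in the synthetase results was not tested. Library totals ran from 17379711 to 21510997 counts over the 9 libraries.

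Other genes that make acyl-CoA were read from a list of 17, of which 11 were tested. In C75, 6 rose and 2 fell (median log2 fold change 0.32), and in ETO none rose and 5 fell (median -0.15). Over all genes tested, 31.2% were called higher and 31.9% lower in C75, and 34.7% and 35.3% in ETO. The counts of this list and of every list below are to be read beside these shares, and counts near them set no list apart. SLC27A2, a fatty acid transport protein that also activates very-long-chain acids, rose from 1.6 ± 0.275 to 6.32 ± 1.19 CPM in C75 (3.97-fold, edgeR adjusted p = 2.41e-10). AACS, which activates acetoacetate, rose 1.43-fold in C75. SLC27A3 rose 1.38-fold in C75 and fell 1.57-fold in ETO, and SLC27A1, a related transport protein, rose 1.25-fold and fell 2.07-fold. ACSS3, the mitochondrial relative of ACSS1 that prefers propionate, fell 1.14-fold in ETO.

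Acyl-CoA binding and hydrolysis genes changed in both directions. Of 10 thioesterases tested, which split acyl-CoA again, 4 rose and 4 fell in C75 (median -0.23) and 4 rose and 4 fell in ETO (median -0.03). THEM5, among those that rose in ETO, had 25 counts in DE, 11 in C75 and 59 in ETO. It needed its ETO libraries to pass the low-count filter, so its rise was favoured by the filter. ACOT13 fell 1.56-fold in C75, and the peroxisomal ACOT8 rose 1.26-fold in C75 and fell 1.49-fold in ETO. The mitochondrial ACOT2 fell 1.57-fold and ACOT9 rose 1.13-fold in ETO. Of 7 acyl-CoA binding genes, 2 rose and 2 fell in C75 (median 0.02) and 2 rose and 1 fell in ETO (median -0.10). DBI, the main cytosolic acyl-CoA binding protein, was at 186 ± 10.7 CPM in DE, 217 ± 8.80 in C75 and 120 ± 5.30 in ETO (SD, n = 3), called in both comparisons.

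Routes into and out of the acyl-CoA pool were read in the same way. Of 8 carnitine genes, 3 rose and 2 fell in C75 (median 0.06) and 1 rose and 3 fell in ETO (median -0.09). CPT1A, which makes the acylcarnitine that enters mitochondria, fell 1.58-fold in C75 and was the only one to rise in ETO, by 2.25-fold, while CPT1B, its scarce muscle form, rose 2.19-fold in C75. CRAT fell 1.81-fold and CROT 1.57-fold in ETO, both short- and medium-chain carnitine acyltransferases. Of 20 acyltransferases of glycerolipid and sterol ester synthesis tested, 7 rose and 4 fell in C75 (median -0.04), and 4 rose and 11 fell in ETO (median -0.25). SOAT1, which esterifies cholesterol, rose 1.54-fold in C75 and fell 1.89-fold in ETO. AGPAT3, a lysophosphatidic acid acyltransferase, rose 1.39-fold and fell 1.74-fold.

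Of 6 fatty acid uptake and binding genes tested, 2 fell in C75 and none rose (median -0.60), and 5 rose in ETO and none fell (median 0.69). CD36, among those that rose, had 13 counts in DE, 5 in C75 and 42 in ETO. It passed the low-count filter only through ETO, so its rise was fixed by the filter. CAV1, the caveolar coat protein, was at 24.4 ± 1.3 CPM in DE, 3.27 ± 0.457 in C75 and 128 ± 2.48 in ETO (SD, n = 3), a 7.45-fold fall and a 5.24-fold rise. FABP5, a cytosolic fatty acid binding protein, fell 2.39-fold in C75 and rose 1.48-fold in ETO. These 2 genes thus had the order of ACSL4, with C75 lowest and ETO highest.

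Partners of ACSF3 and ACSS1 gave mixed counts. Of 11 genes of mitochondrial fatty acid synthesis and malonyl-CoA, 3 rose and 3 fell in C75 (median -0.10) and 2 rose and 3 fell in ETO (median -0.16). LIAS, of lipoic acid synthesis, was the weakest of those called in C75 (0.22, edgeR adjusted p = 0.048) and lost its call under most alternatives. MLYCD, which breaks down malonyl-CoA, fell 1.31-fold in C75 and 2.96-fold in ETO, and MCAT, which loads malonyl groups in mitochondria, rose 1.32-fold in C75 and fell 1.34-fold in ETO. ACACB, the acetyl-CoA carboxylase at the mitochondrial surface, rose 1.66-fold in ETO. Of 13 acetate and acetyl-CoA genes, 4 rose and 5 fell in C75 (median -0.02) and 6 rose and 5 fell in ETO (median 0.08). ACLY, which makes cytosolic acetyl-CoA from citrate, rose 1.19-fold in C75, and PDHA1, a subunit of pyruvate dehydrogenase, fell 1.6-fold in ETO.

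Genes of lipid peroxidation, the process in which ACSL4 is known to act, were read from a list of 16 of which 15 were tested. In C75, 7 rose and 5 fell (median 0.07), and in ETO 5 rose and 6 fell (median -0.11). ALOX5, among those that fell in C75, had 24 counts in DE, 5 in C75 and 23 in ETO. It passed the low-count filter only through DE and ETO libraries, so its fall was favoured by the filter. SLC7A11, the cystine transporter subunit, was at 38.0 ± 0.71 CPM in DE, 25.4 ± 1.96 in C75 and 102 ± 7.16 in ETO (SD, n = 3), and TFRC, the transferrin receptor, rose 1.69-fold in ETO. GPX4, which reduces lipid peroxides, fell 1.52-fold in ETO. AIFM2, which keeps coenzyme Q reduced, rose 2.26-fold in C75, and CYB5R1, an oxidoreductase that can drive lipid peroxidation, rose 2.39-fold. Among 11 regulators of fatty acid genes tested, 4 rose and 4 fell in C75 (median 0.02) and 2 rose and 7 fell in ETO (median -0.33). SREBF1, the gene of the sterol regulatory element binding protein, rose 2.03-fold in C75 and fell 1.26-fold in ETO. PPARGC1A, a coactivator of oxidative genes, rose 4.12-fold in C75 from 2.65 ± 0.776 CPM (n = 3), and HNF4A, a transcription factor of endoderm and liver, fell 5.89-fold in ETO.

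**Figure D4:**
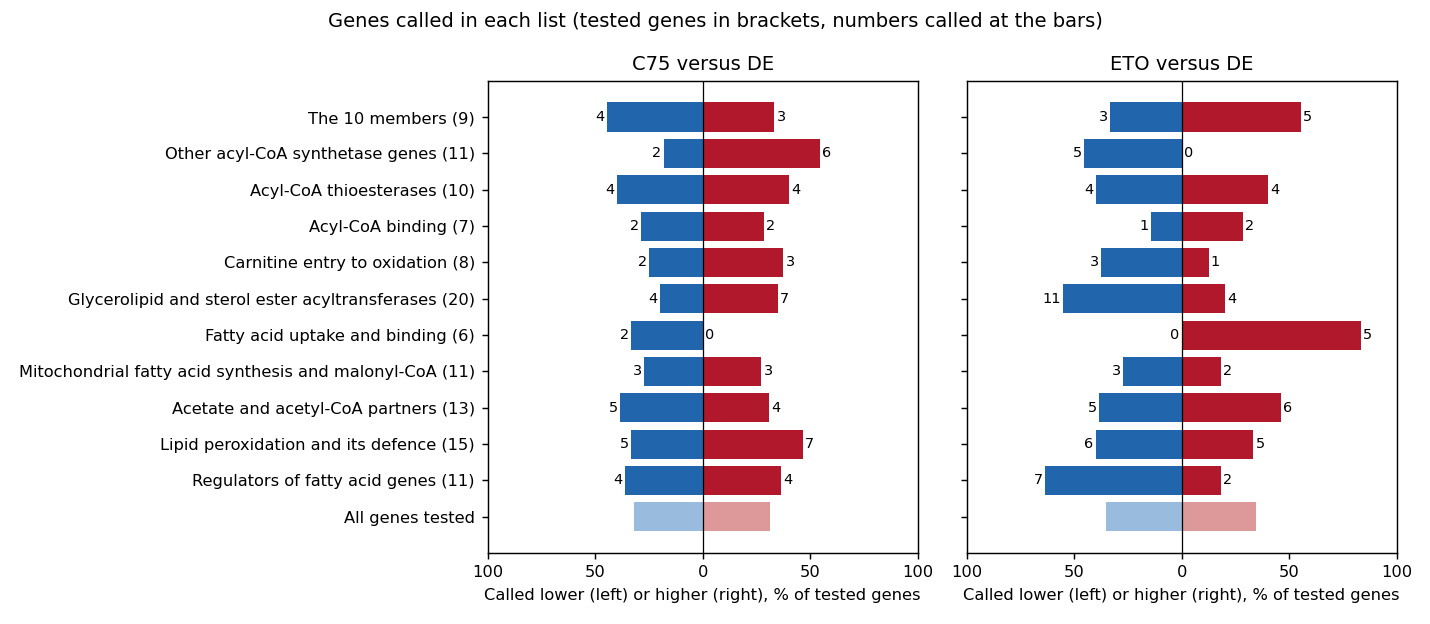
Bars give the percentage of tested genes called higher (red, right) or lower (blue, left) in each list for C75 and ETO against DE, with numbers of genes at the bar ends and the share over all genes in paler bars. Fatty acid uptake and binding has 5 of 6 genes higher in ETO, among them CD36, which passed the low-count filter only through ETO. The other acyl-CoA synthetase genes have 6 of 11 higher in C75.

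The genes whose profile over the 9 libraries lay closest to each of the 4 members with the widest spans were found by Euclidean distance between log2 CPM values centred on each gene's own mean, among 11066 genes averaging 5 CPM or more across all libraries, so that a gene could enter through 1 group alone. A prior count of 2 was added before taking logs, which shrinks the spans of scarce genes: those given here for ACSL5, ACSM3 and ACSS1 are smaller than their fitted differences between C75 and ETO. For ACSM4, whose group means spanned 4.46 on the log2 scale, these were VWF (distance 0.415), TMOD1 (0.42) and ERBB4 (0.577). VWF, von Willebrand factor, was at 71.4 ± 2.97 CPM in DE, 163 ± 4.17 in C75 and 8.79 ± 0.446 in ETO (SD, n = 3). For ACSM3, which spanned 2.38, they were MYC (0.382), TEX15 (0.397) and ITGA1 (0.399), and MYC was at 40.4 ± 2.32, 22.5 ± 1.76 and 116 ± 5.93 CPM. ACSL5, with a span of 2.82, was closest to POU5F1B (0.551), HCN2 (0.599) and MET (0.605), where POU5F1B is a near-identical copy of POU5F1 and may have been assigned reads of that gene. ACSS1, with a span of 2.53, was closest to IGSF9B (0.771), PLXNC1 (1.05) and TNIK (1.09), and TNIK was at 27.5 ± 1.74, 22.3 ± 0.92 and 114 ± 2.69 CPM. The distances of the scarce members include their counting error.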

How the data were processed

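Raw counts per gene were deposited as 1 table, with gene lengths. HISAT2 2.1.0, featureCounts 1.6.4 and build GRCh38 are listed, without a role, in the submitters' processing notes. Not given in the sources used here are the annotation, the strand setting and the treatment of multiply mapped reads. Reads in exons shared with other genes may thus be assigned to either gene or counted for neither. Member lengths equalled merged GENCODE release 29 exons, from which positions come. Libraries held 17379711 to 21510997 counts. In edgeR 4.0.16 (R 4.3.3), filterByExpr kept 14177 genes with 99.962% of the counts. TMM scaling and quasi-likelihood tests followed in 1 fit of 9 libraries with group as the only term and Benjamini-Hochberg adjustment (threshold 0.05). Intervals are 95%; pooled ratios have exact binomial counting intervals scaled by effective library sizes. Alternatives were 2 other scalings, 2 filters, DESeq2 1.42.0, glmTreat, fits of 6 libraries, a replicate block and each library left out. The code was tested on simulated data. Members and gene lists were chosen with earlier results of these data known. Named genes are all members, up to 3 called genes of smallest p per list in each inhibitor against DE, the 3 nearest profiles for 4 members, and genes of the table whose exons overlap a member, plus LINC00304, named after its overlap was seen. CD36, THEM5 and ALOX5 were named for their low counts. No library pair of a group agreed within sampling noise.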

Additional observations from a re-analysis of the deposited data

How the results depend on the processing

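No member changed direction where it was called in the main fit or in the alternative. Of the alternative values for members, 427 kept their call or stayed uncalled, and 26 lost the call. Direction was not compared where neither fit called the member. Of the 9 members tested, the 4 called lower in C75 than in DE were 2 in a fit of those 6 libraries, where only 6 members were tested, 1 with glmTreat, which tests against a log2 fold change of 0.5, and 1 to 4 with 1 library left out. Leaving out 1 library gave 2 to 3 members higher in C75 than DE, 5 higher and 3 lower in ETO than DE, and 3 to 4 higher and 5 lower in C75 than ETO. These counts include ACSL5, ACSM3 and ACSS1, whose direction against ETO was fixed by the filter. Of the 6 members passing in every group, the main fit had 2 higher and 3 lower in ETO than DE. It called 34.7% of all genes higher and 35.3% lower in ETO, and 31.2% and 31.9% in C75, against DE. For C75 against ETO these shares were 39.9% and 39.2%. With glmTreat, 690 genes were higher and 1207 lower in C75 than DE, against 4422 and 4524 in edgeR's test without that threshold. The numbers were 1936 and 1308 against 4916 and 4999 for ETO, and 2475 and 3000 against 5663 and 5561 for C75 against ETO. With upper-quartile scaling 3757 genes were higher and 5165 lower in C75 than DE. Without division by gene length, ACSL1 made up 5.13% of the ACSL sum in DE and 14.8% in C75. ACSL3 made up 69.1%, 68.1% and 69.5% in DE, C75 and ETO, ACSL4 25.6%, 17% and 27.7%, and ACSL5 0.134% in DE and 0.286% in ETO. The replicate numbers did not pair the libraries: correlations of same-numbered deviations ran from -0.0272 to 0.0498, and 3 of 9 libraries correlated best with their own number. With the replicate block, 3 members were higher and 3 lower in C75 than DE, 5 and 3 in ETO, and 4 and 5 in C75 against ETO, with ACSM3 lost in C75. The counts under the block include ACSL5, ACSM3 and ACSS1 as well. At this depth ACSL5, ACSL6, ACSM3 and ACSS1 rest on so few counts that small differences among DE and C75 libraries were not detectable.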
